A study of Rattus norvegicus with 25 samples.

Results

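The genes described here are 10 markers of the neurons of the dentate gyrus (DG) at different ages. Prox1, C1ql2, Dsp, Calb1 and Tdo2 mark mature granule cells, and Dcx, Sox11, Neurod1, Igfbpl1 and Eomes mark progenitors or young neurons. They were taken by name from the 26312 gene identifiers of each table, and each name matched 1 identifier. RNA from the DG was measured in 12 libraries and RNA from the basolateral amygdala (BLA), which holds no granule cells and serves as the reference region, in 13 libraries.

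All animals were adult male Sprague-Dawley rats labelled as wild type, and GEO's tissue fields give hippocampus for the DG and amygdala for the BLA. Stress-exposed rats underwent immobilization for 3 h together with predator scent (fox urine), and control rats stayed in the home cage with a cage change. On behavior tests after a week of rest, stress-exposed rats with composite anxiety-like scores of 0 to 2 formed the stress-low group and those with scores of 13 to 15 the stress-high group, while controls scored 0 to 6. Brains were frozen on day 9, and tissue was taken as punches of 0.75 mm from sections of 200 µm, so a library holds every cell type of the punch. The DG set comprised 6 control, 3 stress-low and 3 stress-high libraries and the BLA set 7, 3 and 3. The stress-high animals were 7, 19 and 20 in both regions, while the stress-low animals were 22, 33 and 34 in the DG and 22, 30 and 34 in the BLA. Every stress-high animal thus had a number up to 20 and every stress-low animal a number above 20, while controls lay on both sides. For the BLA library of animal 35 the treatment field names stress, while its library name gives control, as do the labels of its DG library, and it was used as a control.

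Granule cells are the principal excitatory neurons of the DG and send mossy fiber axons to the CA3 field. New granule cells are still born in the adult rodent DG: radial glia-like stem cells give rise to Eomes (Tbr2) positive progenitors, these to Dcx positive immature neurons, and these to mature cells that express Calb1. Prox1 is the homeobox factor that sets and keeps granule cell identity, and Neurod1 is a basic helix-loop-helix (bHLH) factor needed for the survival of newborn granule cells that mature ones still express. Immature neurons with Dcx are not limited to the DG, since the piriform cortex and the paralaminar nucleus beside the BLA hold them too.

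The promoters of 4 members are shown because these genes fall on opposite sides of the comparison of regions given further on, C1ql2 and Neurod1 being higher in the DG and Dcx and Sox11 in the BLA. Each line holds the 250 bases before the annotated start from RefSeq (build GRCr8, a newer build than that of the counts), written 5' to 3' on the strand of the gene. Windows were found by symbol for 8 of the 10 members, the others being Prox1 and Calb1. Capitals mark each match to CANNTG, the E-box that bHLH factors such as Neurod1 bind, which reads the same on both strands.
C1ql2, chr13:34023652-34023901 (+): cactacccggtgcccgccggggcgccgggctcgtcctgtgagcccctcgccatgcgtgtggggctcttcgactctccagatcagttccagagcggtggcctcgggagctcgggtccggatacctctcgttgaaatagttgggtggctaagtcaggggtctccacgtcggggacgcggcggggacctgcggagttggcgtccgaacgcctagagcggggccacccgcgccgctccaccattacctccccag
Neurod1, chr3:84770455-84770704 (-): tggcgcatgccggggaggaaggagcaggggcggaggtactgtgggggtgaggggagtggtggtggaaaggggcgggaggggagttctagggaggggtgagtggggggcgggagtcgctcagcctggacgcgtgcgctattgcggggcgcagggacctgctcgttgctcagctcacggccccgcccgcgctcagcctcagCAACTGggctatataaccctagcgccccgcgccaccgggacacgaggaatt
Dcx, chrX:112304162-112304411 (-): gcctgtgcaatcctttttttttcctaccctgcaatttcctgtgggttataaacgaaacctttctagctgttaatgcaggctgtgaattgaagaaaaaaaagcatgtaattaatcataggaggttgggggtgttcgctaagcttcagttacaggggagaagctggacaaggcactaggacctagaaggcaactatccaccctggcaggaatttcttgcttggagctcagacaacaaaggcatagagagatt
Sox11, chr6:49738795-49739044 (-): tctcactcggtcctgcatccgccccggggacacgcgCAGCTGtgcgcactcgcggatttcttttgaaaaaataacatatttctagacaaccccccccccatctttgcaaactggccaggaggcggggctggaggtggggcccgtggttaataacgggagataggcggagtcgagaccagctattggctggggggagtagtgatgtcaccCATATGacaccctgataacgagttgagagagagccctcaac
The E-box letters occurred 0 times in the windows of C1ql2 and Dcx, 1 time in that of Neurod1 and 2 times in that of Sox11. Of all 33469 such windows, 65.5% held at least 1 match, so the motif did not set these genes apart. G and C made up 68.8% of the C1ql2 window and 69.2% of the Neurod1 window against 44.0% for Dcx and 56.8% for Sox11. The median over all windows was 51.2%. Base composition did not follow the regions over the other members. Of those called higher in the DG, Dsp was at 75.2%, but Igfbpl1 (44.4%) was near Dcx. Eomes, which was too low to be tested between regions, was at 46.4%.

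Total expected counts, the reads that RSEM assigned to genes, were 11656439 to 19477932 per library in the DG and 12709493 to 22801247 in the BLA. In each region 1 control was left out of the fits, namely the control farthest from the others on the first principal component (animal 35 in the DG and animal 2 in the BLA). Levels are given as TPM (a share of all transcripts that corrects for gene length), and fold changes come from edgeR's quasi-likelihood test on expected counts with Benjamini-Hochberg adjustment over all genes tested.

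In the 11 DG libraries that were kept, the members spanned the range from an abundant synaptic protein to the limit of detection. C1ql2, a secreted C1q-like protein of the mossy fiber synapse, was the highest at 344 ± 60.9 TPM (SD, n = 11). Calb1, the calcium buffer calbindin, followed at 106 ± 14.5 TPM, then Prox1 at 75.6 ± 12.2 TPM and Neurod1 at 55.6 ± 4.71 TPM. These 4 kept the same order in each of the 11 libraries, although the ranges of Calb1 and Prox1 and those of Prox1 and Neurod1 overlapped. A second tier was formed by Dcx, the microtubule-binding protein doublecortin, at 7.57 ± 1.29 TPM, Dsp, the desmosomal linker desmoplakin, at 5.91 ± 2.64 TPM, Sox11, a SoxC transcription factor of young neurons, at 4.18 ± 0.981 TPM and Igfbpl1, an insulin-like growth factor binding protein relative, at 2.92 ± 0.679 TPM. The ranges of neighbours within this tier overlapped, and Dcx exceeded Dsp in 8 of 11 libraries.

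Eomes and Tdo2 stood at the lower end of the DG levels. Eomes, the T-box factor of intermediate progenitors, had 0.802 ± 0.281 TPM, which came from 2 to 12 expected counts per library. Tdo2, tryptophan 2,3-dioxygenase, an enzyme of tryptophan breakdown that is used as a granule cell marker in mouse, had 0 to 3 counts in each of the 12 DG libraries and 0 counts in 5 of them. For Tdo2, 3 counts corresponded to 0.164 to 0.280 TPM in these libraries, the limit that a count of 0 allows for counting error alone. Neither gene passed the filter on low counts in the fits reported here, which held 8 of the 10 members, although Eomes passed in some of those that left out a library. In these DG libraries the marker set was therefore carried by Prox1, C1ql2, Calb1 and Neurod1, and the progenitor end of the lineage by very few reads.

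**Figure D1:**
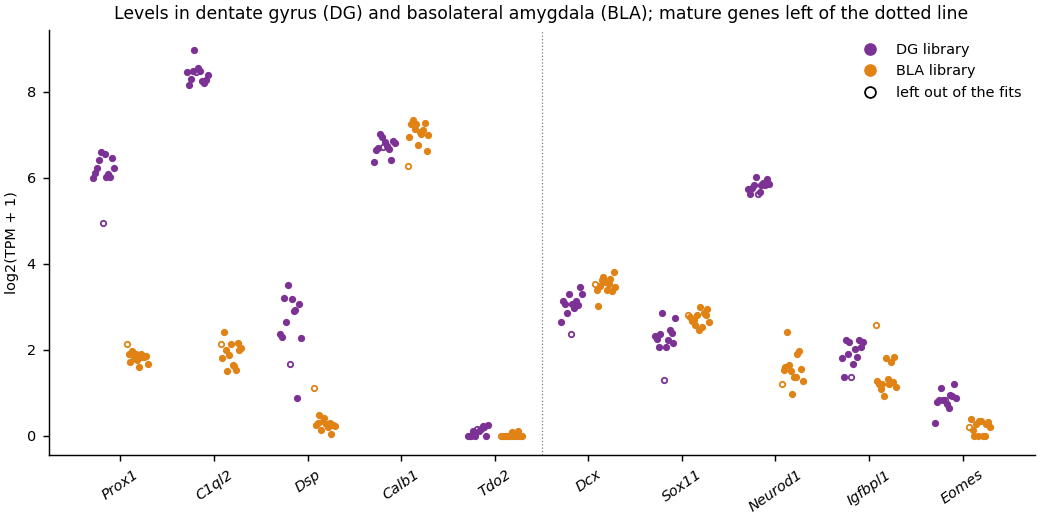
Each point is 1 library, with log2(TPM + 1) on the vertical axis, DG libraries in purple, BLA libraries in orange and the left-out controls open. Prox1, C1ql2, Dsp and Neurod1 separate the regions, while Calb1, Dcx and Sox11 overlap and have lower means in the DG.

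The comparison of regions asks which of these genes are particular to the DG tissue. Of the 8 members tested, 5 were higher in the DG (adjusted p under 0.05) and 3 were higher in the BLA. Among all 15453 genes tested, 36.6% were higher in the DG and 41.3% lower, so being called was no distinction, and the sizes of the differences are what separate the members. All 8 also passed the filter in the BLA libraries on their own. DG and BLA values were deposited as separate sets. Effective length was 50 bases below the gene length in the BLA and 261 to 274 bases below it in the DG, so quantification differed. The labels do not say whether the libraries were also prepared apart. A difference between regions thus cannot be told apart from one between sets. TPM of short genes is raised in the DG by this setting, and the count fold changes do not use length.

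Prox1 (ENSRNOG00000003694) reached 63.0 TPM in the lowest, 73.3 in the median and 95.5 in the highest of the 11 DG libraries and 2.03, 2.57 and 2.93 TPM in the 12 BLA libraries. No DG library came near a BLA library, and counts were 29.7-fold higher in the DG (log2 4.89, SE 0.094, adjusted p 4.1e-22). C1ql2 (ENSRNOG00000046863) ran from 285 to 504 TPM in the DG, with a median of 336, and from 1.85 to 4.28 TPM in the BLA, with a median of 2.81. Its counts were 99.97-fold higher in the DG (log2 6.64, SE 0.12, adjusted p 8.2e-23), the largest ratio of the 8. Dsp (ENSRNOG00000013928) had 0.820, 6.51 and 10.3 TPM as lowest, median and highest DG values and 0.0300, 0.195 and 0.400 TPM in the BLA. The ranges of Dsp did not meet either, with a ratio of 30.5 (log2 4.93, SE 0.32, adjusted p 2.2e-12).

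Neurod1 (ENSRNOG00000005609), although listed with the immature genes, separated the regions as the mature genes did. It had 47.8, 56.1 and 63.8 TPM (lowest, median, highest) in the DG and 0.950, 1.91 and 4.34 TPM in the BLA. Its counts were 24.7-fold higher in the DG (log2 4.63, SE 0.13, adjusted p 3.1e-19).

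Calb1 (ENSRNOG00000007456) went the other way, and calbindin is known from amygdala neurons too. It had 80.8, 105 and 127 TPM in the DG and 97.0, 135 and 160 TPM in the BLA. The ranges overlapped, and counts were 1.39-fold higher in the BLA (log2 -0.48, SE 0.091, adjusted p 5.3e-05). Dcx (ENSRNOG00000047712) had 5.27, 7.39 and 9.97 TPM in the DG and 7.05, 10.3 and 13.0 TPM in the BLA. The classic marker of newborn granule cells was thus 1.35-fold higher in the reference region (log2 -0.43, SE 0.087, adjusted p 1.0e-04). Sox11 (ENSRNOG00000030034) had 3.19, 3.98 and 6.24 TPM in the DG against 4.52, 5.62 and 6.98 TPM in the BLA, and counts were 1.51-fold higher in the BLA (log2 -0.59, SE 0.11, adjusted p 4.3e-05).

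Igfbpl1 (ENSRNOG00000011320) had 1.56, 3.07 and 3.67 TPM in the DG and 0.900, 1.34 and 2.58 TPM in the BLA. The ranges overlapped, and counts of 12 to 44 per library were 1.57-fold higher in the DG (log2 0.65, SE 0.18, adjusted p 0.0023). With both left-out controls added, the call was lost (log2 0.49, adjusted p 0.055). With the BLA control of animal 2 alone (4.96 TPM) the log2 difference was 0.52 (adjusted p 0.046), and with the DG control of animal 35 alone (1.56 TPM) it was 0.62 (adjusted p 0.0033). The BLA libraries with the most Igfbpl1 were those of animals 2, 30, 35 and 20, at 2.27 to 4.96 TPM, and the same 4 had the highest summed TPM of 5 markers of striatum (115 to 382 against 73.8 to 103 TPM in the other 9). In the other 9 BLA libraries Igfbpl1 was at 0.900 to 1.51 TPM, below each kept DG library. The part of striatal tissue in this was not tested.

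Eomes (ENSRNOG00000042140) and Tdo2 (ENSRNOG00000011612) were at 0 to 5 and 0 to 1 counts in the BLA. Eomes was at 0.230 to 1.29 TPM in the DG and 0 to 0.310 TPM in the BLA. It did not pass the filter in the fit of both regions. A fit without the filter would rest on the DG counts, so it is no test of the regions and no fold is given. Nor is a fold given for Tdo2, which was at or under 3 counts in each library of both regions.

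Over the 4 mature members tested the median log2 difference between DG and BLA was 4.91, over the 4 immature ones 0.11 and over all genes -0.04. Other genes that mark granule cells showed the same side. Of 12 such genes tested, 10 were higher in the DG, 1 was lower and 1 did not pass, with a median log2 difference of 1.84. Plk5 (5.07, SE 0.12, adjusted p 1.1e-20), Il16 (3.19, SE 0.089, adjusted p 2.4e-19) and Maml2 (2.45, SE 0.084, adjusted p 1.1e-17) had the smallest p, and C1ql3, a relative of C1ql2, was the gene that was lower (-1.07, SE 0.069, adjusted p 1.5e-12).

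Other genes of young neurons were divided. Of 8 tested, 4 were higher in the DG, 2 were lower and 2 did not pass, with a median of 0.21. Nhlh1, a bHLH factor of postmitotic neurons, had 20.8 to 43.5 TPM in the DG and 0 to 0.110 TPM in the BLA. It passed the filter only through the DG libraries, so its call, 1 of the 4 higher ones, is no test of the regions and no fold is given. Calb2, the calretinin of young granule cells and of interneurons, was lower in the DG (log2 -3.72, SE 0.15, adjusted p 4.0e-16), and Cd24 was higher (1.45, SE 0.088, adjusted p 4.6e-13). The DG thus held much Nhlh1 and Neurod1 but less Dcx and Sox11 than the BLA.

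Genes of dividing and stem cells did not mark the DG as a list. Of 9 genes of dividing cells, 2 were higher in the DG (Mki67 at 1.57, SE 0.11, adjusted p 3.0e-12, and Ccnd2 at 1.17, SE 0.070, adjusted p 3.5e-13), 2 were lower (Ccnb1 at -0.75 and Ccna2 at -0.82, adjusted p 4.6e-05 and 8.3e-04) and 5 did not pass, with a median of -0.04. Of 7 factors of progenitors, 1 was higher, 4 were lower and 2 did not pass, with a median of -0.44. The higher gene was Neurog2, a proneural factor, at 0.770 to 3.53 TPM in the DG and 0 to 0.390 TPM in the BLA. Its BLA median was 0 TPM, so it passed the filter only through the DG libraries. Its call is therefore no test of the regions, and no fold is given. Of 7 genes of radial glia-like cells, 2 were higher, 2 were lower and 3 did not pass, with a median of -0.12. The higher ones, Gfap (1.82, SE 0.079, adjusted p 1.0e-15) and Fabp7 (1.41, SE 0.072, adjusted p 1.9e-14), are also expressed by astrocytes. All 4 astrocyte markers were lower in the DG, with a median of -0.31.

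Markers of other cells describe what else the punches held. In the DG libraries the summed TPM of 8 CA pyramidal cell genes was 138 to 204, with Bok at 67.4 to 127 TPM, and 4 mossy cell genes summed to 2.94 to 4.13 TPM. Of the choroid plexus markers Ttr was at 0 to 0.240 TPM and Kcne2 at 2.01 to 9.66 TPM. Compared with the BLA, 5 of 5 oligodendrocyte, 4 of 4 microglial, 4 of 4 endothelial, 4 of 4 mossy cell, 4 of 5 interneuron, 3 of 5 striatal, 3 of 4 thalamic and 2 of 2 ependymal markers tested were lower in the DG. Over all genes tested 41.3% were lower, so a count from so short a list says little. The mossy cell list did not mark the DG here. Its Glp1r, at a DG median of 0 TPM, passed the filter only through the BLA libraries, so its call among the 4 is no test of the regions. Of 7 CA pyramidal genes, 5 were lower and 1 was higher, and of 5 genes of BLA excitatory neurons, 3 were higher and 2 lower. Of 2 choroid plexus genes, 1 was lower.

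**Figure D2:**
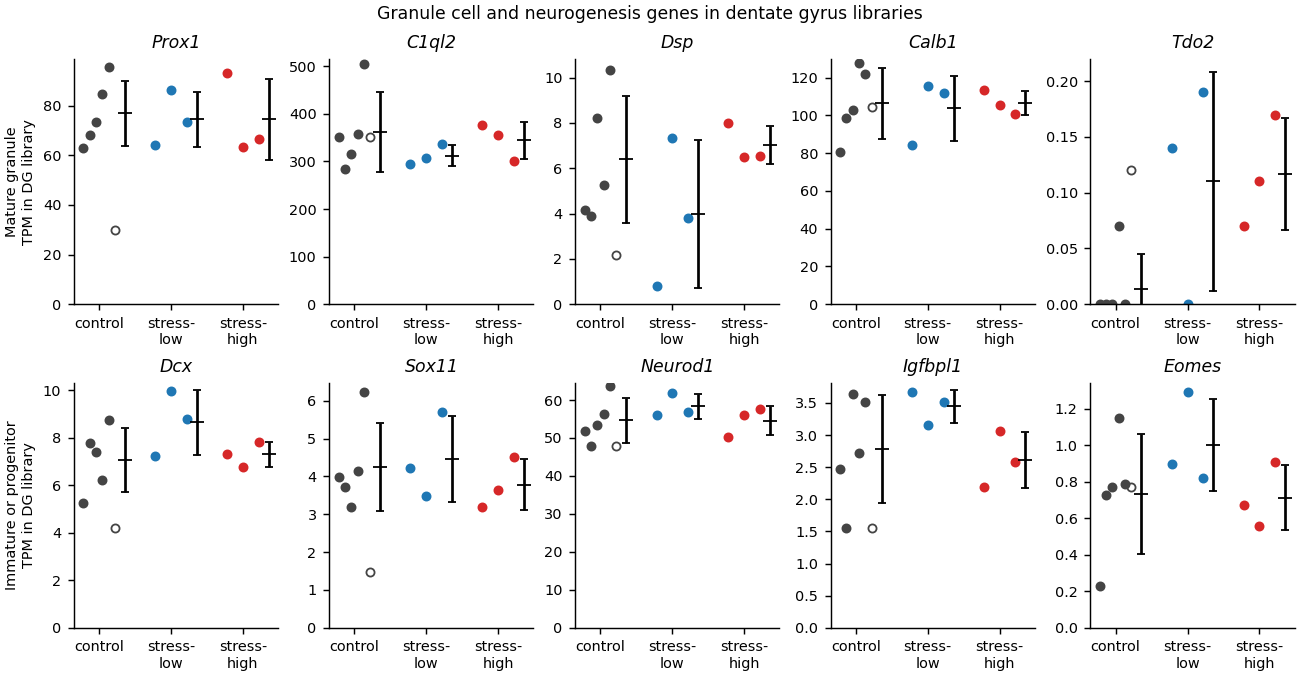
Each panel shows the TPM of 1 gene in the DG libraries of the 3 groups, with filled points for kept libraries, an open point for the left-out control of animal 35, and the mean and SD of the kept libraries beside them. The groups overlap in each panel apart from stress-low and stress-high for Igfbpl1, where the stress-low points lie above.

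The comparisons of groups ask whether granule cell or neurogenesis genes differed in the DG 9 days after the stress, between outcomes or from controls. After adjustment, 0 of the 8 members tested passed the threshold of 0.05 in each of the 4 comparisons. By edgeR, 0% of the 14080 genes tested passed in each of them, and DESeq2 and limma called 0 members as well. At an unadjusted p under 0.05 the background was 6.90% of genes for control against stress-low, 2.19% for control against stress-high, 4.42% for control against both stress groups and 3.12% for stress-low against stress-high. Of the 8 members, 1 was under it in the comparison of control with stress-low, and 0 in the other 3. With the animal number (above 20 or not) as a covariate, which the controls on both sides allow, C1ql2 (log2 0.57, SE 0.18, unadjusted p 0.0080, adjusted p 0.75) and Calb1 (0.42, SE 0.18, unadjusted p 0.033, adjusted p 0.87) were under it for stress-high against stress-low, as were 787 of the 14080 genes instead of 440, and the log2 difference of C1ql2 without the covariate was 0.15. In bulk tissue, fewer cells of a type and less RNA per cell cannot be told apart, so these values describe the punch as a whole. Replicates are separate animals.

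Among the mature genes, Prox1 was at 63.0, 68.2, 73.3, 84.6 and 95.5 TPM in controls (animals 2, 14, 17, 28 and 32), 64.1, 86.2 and 73.5 TPM in stress-low (22, 33 and 34) and 93.3, 63.5 and 66.6 TPM in stress-high (7, 19 and 20). Each group spanned nearly the same range. The stress-low to control difference was -0.03 on the log2 scale (95% CI -0.34 to 0.29) and the stress-high to control difference -0.02 (-0.34 to 0.29). C1ql2 was at 351, 285, 315, 357 and 504 TPM in controls, 294, 307 and 336 TPM in stress-low and 377, 355 and 301 TPM in stress-high. A control, animal 32, was the highest, and both stress groups lay within the range of controls. Calb1 was at 80.8, 98.7, 103, 127 and 122 TPM in controls, 84.0, 115 and 112 TPM in stress-low and 113, 105 and 100 TPM in stress-high, again within the range of controls.

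Dsp was the most variable of the members that passed the filter, with a coefficient of variation of 44.8% over the 11 libraries against 8.48% for Neurod1. It was at 4.17, 3.91, 8.24, 5.28 and 10.3 TPM in controls, 0.820, 7.34 and 3.82 TPM in stress-low and 7.99, 6.51 and 6.54 TPM in stress-high. The stress-low animal 22 was the lowest by far, with 71 counts where the other kept libraries had 242 to 905, and the remaining animals overlapped between groups. The difference of stress-high from stress-low was 0.83 on the log2 scale (95% CI -0.24 to 1.90), an interval wide enough to hold no change and a change above 3-fold. Over 17 settings it ran from 0.32 to 1.66, the highest being the fit without animal 33 (unadjusted p 0.0058, adjusted p 1.0). Tdo2 was at 0 counts in 4 of 5 kept controls and at 1 to 3 counts in 5 of 6 stress-exposed libraries. Its mean TPM gave an exact two-sided permutation p of 0.030 for control against both stress groups and 0.036 for control against stress-high, the lowest of the 80 tests of members, and 1.0 after adjustment over the 80. The left-out control held 2 counts, and with it p was 0.069 for control against both stress groups. At counts of 3 or fewer no change in Tdo2 was detectable.

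Among the immature genes, Dcx was at 5.27, 7.77, 7.39, 6.22 and 8.73 TPM in controls, 7.24, 9.97 and 8.77 TPM in stress-low and 7.33, 6.78 and 7.82 TPM in stress-high. The stress-low animals 33 and 34 were above each control, and animal 22 was inside their range. The difference of stress-low from control was 0.30 on the log2 scale (SE 0.14, 95% CI 0.0014 to 0.60, unadjusted p 0.049, adjusted p 0.72), a member named because its unadjusted p was under 0.05. It ran from 0.19 without animal 33 to 0.41 without animal 22, and the lowest adjusted p over the 18 alternatives was 0.37. Stress-high differed from control by 0.06 (95% CI -0.24 to 0.36).

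Igfbpl1 was at 2.47, 1.56, 3.64, 2.72 and 3.52 TPM in controls, 3.67, 3.16 and 3.51 TPM in stress-low and 2.19, 3.07 and 2.58 TPM in stress-high. The stress-low values were all above the stress-high ones, while controls covered both. The log2 difference of stress-high from stress-low was -0.39 (SE 0.28, 95% CI -0.98 to 0.21, adjusted p 1.0), and the exact permutation p of 0.10 is the smallest that 3 against 3 libraries allow. Shuffled labels separate 3 against 3 libraries at this rate, and 1 of the 10 members was without overlap here. The lack of overlap therefore does not set Igfbpl1 apart. These levels rest on 25 to 42 counts per library.

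Neurod1 was the steadiest member, at 51.9, 47.8, 53.4, 56.3 and 63.8 TPM in controls, 56.1, 62.0 and 56.9 TPM in stress-low and 50.1, 56.0 and 57.5 TPM in stress-high. The groups overlapped, and the stress-low to control difference was 0.11 on the log2 scale with the narrowest interval of the 8 (95% CI -0.05 to 0.27). Sox11 was at 3.98, 3.73, 3.20, 4.15 and 6.24 TPM in controls, 4.23, 3.47 and 5.69 TPM in stress-low and 3.19, 3.64 and 4.51 TPM in stress-high. Control animal 32 was again the highest. Eomes was at 0.230, 0.730, 0.770, 1.15 and 0.790 TPM in controls, 0.900, 1.29 and 0.820 TPM in stress-low and 0.670, 0.560 and 0.910 TPM in stress-high, with overlap throughout.

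**Figure D3:**
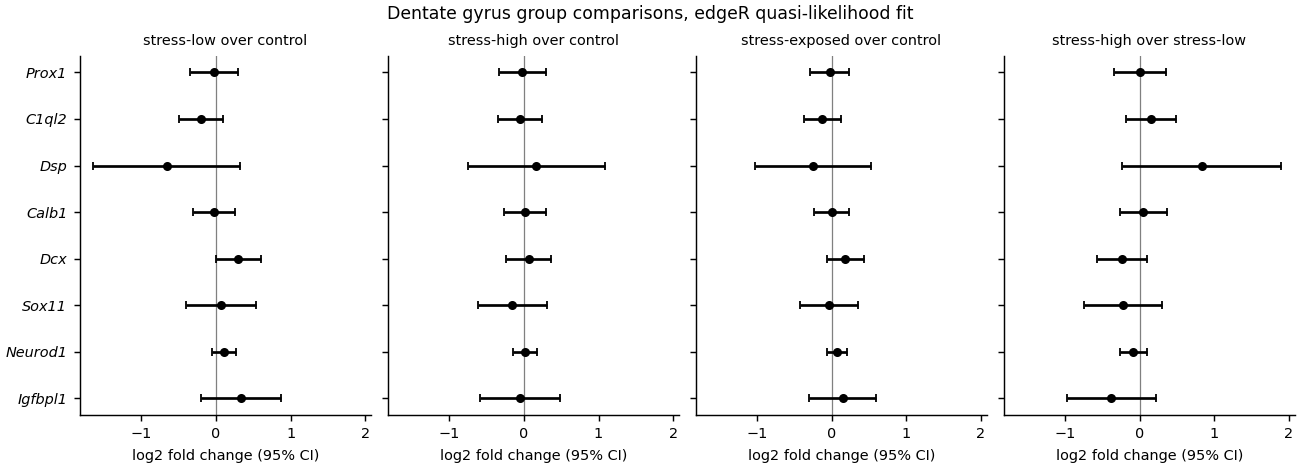
Points are log2 fold changes of the 8 tested members in each DG comparison with 95% confidence intervals from the edgeR fit, and the line marks no change. All intervals cross 0 except that of Dcx in stress-low over control, whose lower end is 0.0014, and Dsp has the widest ones.

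Set side by side, the medians of mature and immature genes had opposite signs in stress-low animals, while no member passed after adjustment. The median log2 difference of stress-low from control was -0.12 over the 4 mature members and 0.20 over the 4 immature ones, beside -0.0030 over all genes. Of the mature members Prox1 and Calb1 were both at -0.03, C1ql2 at -0.20 and Dsp at -0.66. The immature ones ran from 0.07 for Sox11 to 0.34 for Igfbpl1. For stress-high from control the medians were -0.0018 and -0.01, for both stress groups from control -0.08 and 0.10, and for stress-high from stress-low 0.10 and -0.23, with medians over all genes of 0.0011, -0.0028 and -0.00017. These comparisons share the same control or stress libraries.

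As a description over the members, the mean log2(TPM + 1) of the 5 mature genes minus that of the 5 immature genes was taken in each DG library. It was 2.08, 2.01, 2.10, 2.12 and 2.17 in controls, 1.46, 1.96 and 1.81 in stress-low and 2.40, 2.12 and 1.98 in stress-high. All 3 stress-low libraries lay below the 5 kept controls, the left-out control (2.10) and the stress-high libraries, although animals 33 (1.96) and 20 (1.98) nearly met. The mature level was 4.34 in animal 22, below the 4.64 to 5.2 of controls, and 4.93 and 4.79 in animals 33 and 34. In animal 22 Dsp was at 0.820 TPM, while Prox1, C1ql2 and Calb1 were inside the range of controls. The immature level was 2.88 to 2.98 in stress-low, inside the 2.56 to 3.03 of controls. With a pseudocount of 0.1 the stress-low libraries (1.14 to 1.67) were again below controls (1.72 to 1.93) and stress-high (1.86 to 2.26). No test was made on this difference, since the members were chosen with earlier results known, and no member passed its own test. In the BLA the same difference was 0.26 to 0.62 in controls, 0.05 to 0.44 in stress-low and 0.13 to 0.42 in stress-high, with overlap.

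**Figure D4:**
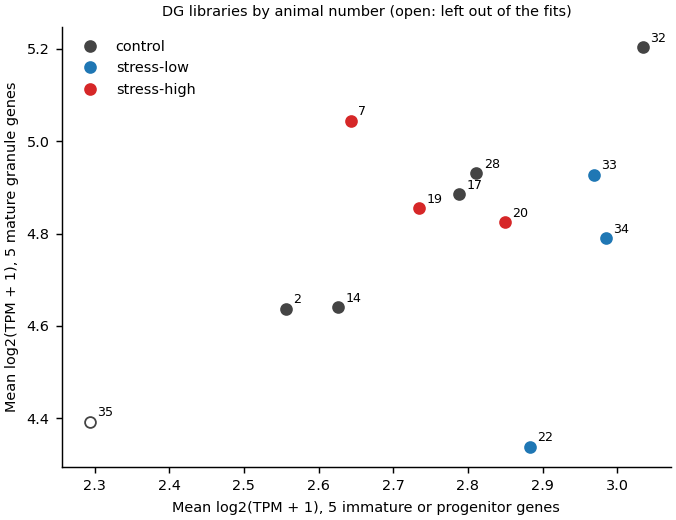
Each point is 1 DG library labelled by animal, with the mean log2(TPM + 1) of the 5 immature genes on the horizontal axis and of the 5 mature genes on the vertical axis. The stress-low animals 22, 33 and 34 lie toward the right, at an immature level of 2.88 to 2.98. Only animal 22 (4.34) lies below the controls in mature level, while animals 33 (4.93) and 34 (4.79) lie among them.

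Related genes in the DG gave 0 calls after adjustment in the same comparisons. Among the 12 other granule cell genes, 3 had an unadjusted p under 0.05 for stress-high against stress-low, where the background was 3.12%, and 9 did not. These were Pdzd2 (log2 0.59, SE 0.15, p 0.0019), Il16 (0.24, SE 0.068, p 0.0035) and Maml2 (0.35, SE 0.12, p 0.0085), each with an adjusted p of 1.0. Pdzd2 was at 12.1, 10.2 and 11.5 TPM in stress-low and 20.2, 16.4 and 13.8 TPM in stress-high, with controls at 11.5 to 18.5 TPM. For control against stress-low the unadjusted p was under 0.05 for Maml2 (-0.28) and Pdzd2 (-0.36), and for control against stress-high for Il16 (0.14). The list medians stayed between -0.05 and 0.07.

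Among the 8 other young neuron genes, 0 were under an unadjusted p of 0.05 in the 4 comparisons, with medians between -0.13 and 0.11. Of the 9 genes of dividing cells 1 was, Pcna in stress-high (0.18, SE 0.069, p 0.022, adjusted p 1.0). Of the 7 progenitor factors 1 was, Tfap2c, a factor of intermediate progenitors, for stress-low (0.92, SE 0.39, p 0.036), stress-high (1.0, SE 0.38, p 0.019) and both (0.96, SE 0.33, p 0.011) against control, with adjusted p of 0.72, 1.0 and 0.93. It was at 0.380, 0.570, 0.920, 1.17 and 1.20 TPM in controls and 0.760 to 2.18 TPM in stress-exposed animals, of which stress-high (1.23, 2.00 and 1.81 TPM) did not overlap controls and stress-low did through animal 33. Of the 7 radial glia-like genes 2 were, Fabp7 (-0.25, SE 0.088, p 0.013) and Gfap (-0.31, SE 0.14, p 0.041) in stress-high against control, both with an adjusted p of 1.0, and the same genes against control for both stress groups (-0.20, SE 0.073, p 0.017, and -0.29, SE 0.11, p 0.024, adjusted p 0.93). Fabp7 was at 272 to 347 TPM in the 5 controls and 223, 262 and 250 TPM in stress-high, without overlap, while the left-out control had 293 TPM. Among the markers of other cell types, Ppp1r1b of the striatal list (-0.17, SE 0.068, p 0.028, adjusted p 0.72, 1 of 5 genes) was under it for stress-low against control and for both stress groups (-0.14, p 0.024, adjusted p 0.93), and 10 of the lists of other cells held 0 such genes. The part of these markers in the values of the members was not tested.

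In the BLA, 0 of the 8 members passed after adjustment in each comparison, as did 0% of the 15230 genes tested by edgeR, and DESeq2 called 0 members. At an unadjusted p under 0.05 the background was 2.75% for control against stress-low, 2.57% for control against stress-high, 3.03% for control against both and 1.98% for stress-low against stress-high. Dsp in stress-low was the 1 member under it. It was at 0.10 to 0.40 TPM in the 6 kept controls (median 0.250) and 0.0300, 0.180 and 0.160 TPM in stress-low, from 2 to 36 counts. The groups overlapped, and the log2 difference was -0.99 (SE 0.45, unadjusted p 0.045, adjusted p 1.0), which shrank to -0.59 without animal 22, whose library held 2 counts. C1ql2 was at 3.47, 2.99 and 3.09 TPM in stress-low and 2.14, 2.09 and 1.89 TPM in stress-high, without overlap, and controls ran from 1.85 to 4.28 TPM. Its log2 difference was -0.58 (SE 0.29, 95% CI -1.20 to 0.05, adjusted p 1.0), from 17 to 36 counts per library, and the exact permutation p was 0.10. Shuffled labels separate 3 against 3 libraries at that rate, and 1 of the 10 members was without overlap here. The lowest p of the other members in the 4 comparisons of the BLA was above 0.05 in this fit. With the animal number as a covariate, as in the DG, 2 members were under an unadjusted 0.05 for stress-high against control. For stress-high against stress-low 2 were under it as well, and 0 passed after adjustment. The share of all genes under it in that fit is not given here.

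Differences of the group contrasts between the regions were tested in 1 fit. By edgeR 0 of the 8 members passed, adjusted or unadjusted, in any of the 4 contrasts of the fit without pairing, and 0 passed after adjustment with the animal as block or in DESeq2. The background after adjustment was 0%, and at an unadjusted p under 0.05 it was 3.21% for control against stress-low, 1.84% for control against stress-high, 2.67% for control against both and 2.00% for stress-low against stress-high. The closest member was C1ql2 between the stress groups (DG minus BLA 0.72, 95% CI -0.05 to 1.5, unadjusted p 0.065). Its unadjusted p was 0.041 with the animal as block (0.81, SE 0.36, adjusted p 1.0), 0.046 with all mapped libraries and 0.026 in DESeq2.

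Some members varied together between animals. Over the 45 pairs of members in the 11 DG libraries, with group means subtracted, 0 pairs had an adjusted p under 0.05 and 9 had an unadjusted permutation p under 0.05. The closest pair was Prox1 with Calb1 (r = 0.81, permutation p 0.0026, adjusted p 0.12, rho = 0.79, permutation p 0.0051, adjusted p 0.23, n = 11), and r was 0.87 without the 2 libraries farthest from the median of Prox1. Median r was 0.47 over the 10 mature pairs, 0.35 over the 10 immature pairs and 0.36 over the 25 mixed pairs. Of the mixed pairs 22 had a positive r, so mature genes were not set against immature ones from animal to animal. The medians include Tdo2, at 0 to 3 counts per library, whose r with the mature members was -0.48 to -0.05. Between the other mature members r was 0.45 to 0.81. The libraries share library size and RNA quality as well as tissue.

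Prox1 was inversely related to Neurod6 across the DG libraries. Neurod6, a bHLH factor of pyramidal neurons, stood on the list of BLA excitatory neurons here. It was looked at after the values were seen, for each of the 10 members. The summed TPM of the CA pyramidal list, Bok of that list and the list without Bok were added (40 correlations). An adjusted p over these 40 does not cover the choice of Neurod6, so it describes these libraries only. Neurod6 was at 175, 184, 147, 134 and 107 TPM in controls, 186, 118 and 167 TPM in stress-low and 99.4, 167 and 178 TPM in stress-high. The 4 animals with the most Prox1 (7, 28, 32 and 33) were those with the least Neurod6. With group means subtracted, r between Neurod6 and Prox1 was -0.96 (permutation p 1e-05, the smallest the resampling can give, adjusted p 4e-04) and rho was -0.83 (permutation p 0.0028, adjusted p 0.037, n = 11). Without the 2 libraries farthest from the median of Neurod6, r was -0.92. Among the 7 libraries other than these 4, r of the values as deposited was -0.59 (exact permutation p 0.17).

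The CA pyramidal list gave r = -0.95 with Prox1 (permutation p 1e-04, adjusted p 0.0013) and rho = -0.90 (permutation p 4e-04, adjusted p 0.0080). This rested on Bok, which alone gave r = -0.96 (permutation p 4e-05, adjusted p 8e-04) and rho = -0.91 (permutation p 3e-04, adjusted p 0.0080). The other 7 genes of the list summed to 60.8 to 87.8 TPM and gave r = -0.30 (permutation p 0.37, adjusted p 0.55) and rho = -0.15 (permutation p 0.67, adjusted p 0.81). Bok was also the gene of the list that was higher in the DG than in the BLA. For Dsp, Calb1 and C1ql2 the r with Neurod6 was -0.71, -0.70 and -0.67 (permutation p 0.012, 0.017 and 0.017, each with an adjusted p of 0.082). Each group held animals at both ends of the Neurod6 range, and the list summed to 142 to 197 TPM in controls, 138 to 188 TPM in stress-low and 141 to 204 TPM in stress-high. The part of punch placement in the spread of the members was not tested.

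**Figure D5:**
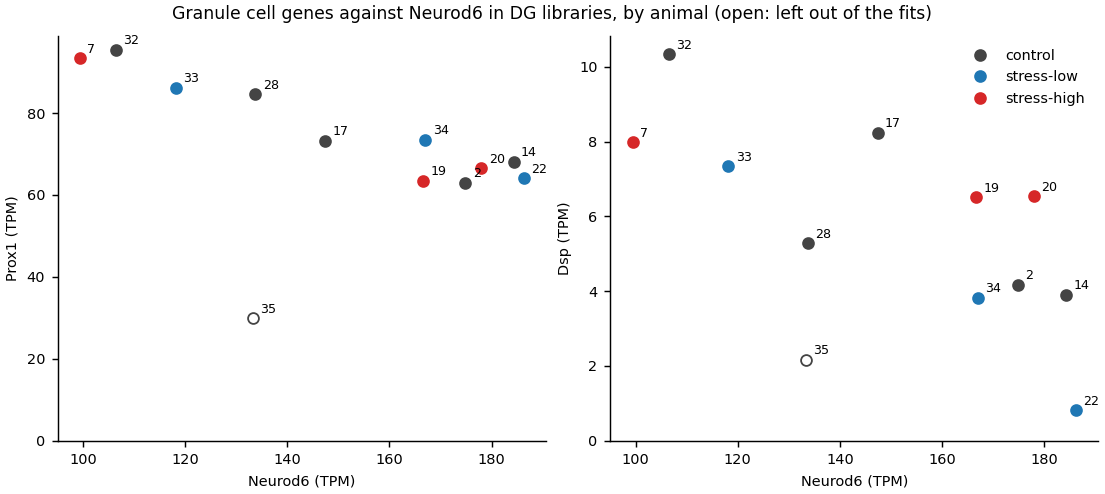
Each point is 1 DG library labelled by animal, with Neurod6 TPM on the horizontal axis and Prox1 (left) or Dsp (right) TPM on the vertical axis. Prox1 falls from 93.3 and 95.5 TPM in animals 7 and 32 to 63.0 to 68.2 TPM in the 4 animals with the most Neurod6, with the left-out animal 35 far below at 29.9 TPM.

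Among 13557 genes with a mean of at least 1 TPM, those whose pattern over the 11 DG libraries was most like the mean of the mature members were Cdh13 (r = 0.96), Ttc8 (0.96), Htr4 (0.96), Itga4 (0.95) and Vangl2 (0.95). For the immature members they were Lrrn1 (0.97), Prrc2c (0.97), Naa60 (0.95), Glcci1 (0.95) and Lima1 (0.94). These are the top of a ranking and carry no test.

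The left-out DG control of animal 35 differed from the other controls in some members only. Prox1 was at 29.9 TPM, Sox11 at 1.47 TPM and Dcx at 4.18 TPM, each below all kept DG libraries and 0.389, 0.345 and 0.591 of the mean of the other controls, and Dsp was at 0.340 of it. C1ql2 (0.971), Calb1 (0.983) and Neurod1 (0.876) stayed close to that mean. These 4 genes had the longest models of the 10, from 2015 bases for Sox11 to 8827 for Dcx, against 953 to 1834 bases for the others, among which Igfbpl1 was at 0.561. The part of RNA quality in this was not tested.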

How the data were processed

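The authors sequenced poly-A RNA from left-hemisphere punches of both regions in 25 libraries, which were aligned with STAR 2.6.0a to Rn5 with Ensembl annotation and quantified with RSEM 1.3.1. The authors deposited for each region 1 table of expected counts, estimated reads per gene that need not be whole, with TPM and other values (length and effective length in bases), for 26312 identifiers and unfiltered. Groups and animals came from the labels.

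After rounding, the expected counts went into edgeR 4.0.16 (R 4.3.3), whose quasi-likelihood test was used with TMM factors and filterByExpr (minimum count 10), as 3 group means per region in 1 fit, which left 14080 genes in the DG and 15230 in the BLA. DG and BLA were compared in a fit of 6 means over 23 libraries (15453 genes). The study used EBSeq, which was not used here. An adjusted p is Benjamini-Hochberg over all genes tested, with a threshold of 0.05, and intervals are 95%. Stress-exposed is the mean of both stress groups. Exact permutation tests were two-sided on TPM. Correlations used 100000 resamples. DESeq2 1.42.0 and limma 3.58.1 served as alternatives on counts and log2(TPM + 1), with 0.1 as another pseudocount. The edgeR step was tested on simulated data.

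Between regions, animals pair the libraries by the labels: over the 9 animals kept in both, deviations from group means correlated at a median r of 0.14 (0.081 to 0.22), against -0.01 for 123 pairs of different animals.

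Members and gene lists were chosen with earlier results of these data known. All members were named with TPM. Fold changes with tests were given between regions for each member that passed the filter. Between groups they were given for a member with an unadjusted p under 0.05 or groups that did not overlap, with intervals of some others beside. Of each list, up to 3 genes with the smallest p were given values, a few others being chosen after their values were seen. Total counts per library limit precision for Tdo2, Eomes, Igfbpl1 and BLA Dsp, and floors of 3 counts cover counting error only. Results for some list genes are not reported here.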

Additional observations from a re-analysis of the deposited data

Results flagged for a closer look

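Of 20 groups of control libraries checked for a value far from the rest, 4 had one. The rule's chance rate of about 1 in 20 does not hold for Tdo2, where 1 count among zeros is always flagged. The number of flags is therefore not set against chance. Neurod1 was at 4.34 TPM in the BLA control of animal 27, with the next control at 2.11 TPM. Igfbpl1 was at 2.48 TPM in the BLA control of animal 35, with the next at 1.42 TPM, and that library had the second highest summed level of the striatal markers (228 TPM). Tdo2 was at 0.07 TPM in the DG control of animal 28 and at 0.06 TPM in the BLA control of animal 35, a count of 1 in each, while the other kept controls were at 0.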

How the results depend on the processing

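Counts of members, and of correlated pairs of members, past the adjusted threshold stayed within 1.5 times in all 222 alternative values, which covered DESeq2, limma, other size factors, no filter, all mapped libraries, only the groups compared, the animal number as covariate and leaving out each library. With the title number as a replicate block 0 members passed in the 8 comparisons of groups (2 at an unadjusted p under 0.05 for DG stress-high against stress-low, C1ql2 and Dsp), and with the animal as block 0 passed in the 4 region differences while 5 were higher and 3 lower in the DG. The title numbers did not pair the libraries, with a median r between equal numbers of -0.01 in both regions. The call of Igfbpl1 between regions was lost with all mapped libraries (log2 0.49, adjusted p 0.055), which bring in a control of each region; with either control alone it held (adjusted p 0.046 and 0.0033, chosen after seeing the data). With a pseudocount of 0.1 the mature minus immature level moved to 1.82 in DG controls, 1.46 in DG stress-low, 0.033 in BLA controls, -0.28 in BLA stress-low and -0.14 in BLA stress-high. Low counts limit what could be shown for Tdo2, Eomes, Igfbpl1 and, in the BLA, Dsp and C1ql2.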

Other observations

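In the BLA, genes of the same lists with an unadjusted p under 0.05 by edgeR, each with an adjusted p of 1.0, were mostly outside the granule cell lists. For stress-low against control they included Slc1a2, the astrocyte glutamate transporter (log2 -0.25, SE 0.067, p 0.0019), and Hes5, a Notch target of progenitors (-0.32, SE 0.14, p 0.034). Hes5 had a like value for stress-high against control (-0.34, SE 0.14, p 0.026), with the same control libraries. In the differences between regions, Pdzd2 (DG minus BLA 0.60, SE 0.24, p 0.018) and Il16 (0.50, SE 0.23, p 0.041) were under it between the stress groups. The left-out BLA control of animal 2 held 1.15 TPM of Dsp, 4.57 times the mean of the other controls, and 75.9 TPM of Calb1, 0.547 of it.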
